A study of Oryza longistaminata with 9 samples.

Results

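Starch synthases are the enzymes that lengthen the glucan chains of starch in plastids, and 9 of the 46327 gene models in the count table of Oryza longistaminata anthers carried that description. The 9 genes were chosen by the words "starch synthase" in the gene description, which BGIOSGA022586, a gene the choice also listed by its identifier, carries as well. Any starch synthase described in other words is not among the 9 and is left out of the sums and shares below. O. longistaminata is an African wild rice, and RNA was measured in anthers taken from 6-mm spikelets (Ls-6mm, stage 6 of anther development, when microspore mother cells and the tapetum are present) and from 4-mm spikelets (Ls-4mm, stage 4, when primary sporogenous cells form). Each stage had 3 libraries, all labelled as anther tissue of the same species with no other genotype or treatment. The study's methods name pollen as the source of the RNA, while its results name isolated anther tissue. Libraries of 8.5-mm spikelets were not analysed here. No source used here gives the plants behind each library, and the p-values therefore rest on the spread between libraries, which may be technical.

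A starch synthase transfers glucose from ADP-glucose to the end of a growing glucan chain. Soluble forms build amylopectin, the branched part of starch, together with branching and debranching enzymes. A granule-bound form encoded by Waxy makes amylose, the mostly linear part, in rice endosperm and pollen. Cereal pollen fills with starch late in its development, and the iodine stain that is used to score rice pollen detects this starch. Plastids of green tissue also make starch, so anther walls as well as pollen can hold these transcripts. The study places the start of meiosis and the formation of pollen in longer spikelets than those compared here.

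The 9 genes lay on 6 chromosomes in the positions the table lists. The study's methods point to an Ensembl reference of O. longistaminata. The identifiers instead carry the BGIOSGA prefix that Ensembl uses for O. sativa indica, so the gene models are named as those of indica. The assembly behind these positions was not checked here. Any effect of counting O. longistaminata reads on models of another species was not tested. BGIOSGA021860 (chromosome 6 from 3609454 to 3616267) is described as soluble starch synthase 1, and BGIOSGA022241 (chromosome 6 from 1931535 to 1935014) carries the gene name WAXY. The table gives the other members no isoform name, and whether any of them is granule-bound was not determined here. Of these, 6 are described only as a starch synthase of chloroplasts or amyloplasts, namely BGIOSGA022586 (chromosome 6 from 7778365 to 7782784), BGIOSGA024424 (chromosome 7 from 12148263 to 12152181), BGIOSGA033011 (chromosome 10 from 14120504 to 14127623), BGIOSGA005631 (chromosome 2 from 33274118 to 33278322), BGIOSGA000900 (chromosome 1 from 33261071 to 33269378) and BGIOSGA020250 (chromosome 5 from 27869304 to 27876940). The last, BGIOSGA009244 (chromosome 2 from 36551157 to 36552996), is described only by a starch synthase catalytic domain and has a coding length of 810 bases, against 1827 to 2748 bases in the other 8 genes. All 9 models are protein coding, and 0 of them overlap another gene model, so no count is shared with a neighbour on either strand. Reads that match several members equally well cannot be traced from the table.

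Total counts ran from 17076800 to 21232663 in the Ls-6mm libraries and from 14509449 to 16684146 in the Ls-4mm libraries. Changes within a gene are given in CPM, counts scaled to a total of 1000000 per library after the total was multiplied by its TMM factor, a scaling that edgeR estimates from most genes. Levels of different genes are compared in the FPKM of the deposited table, which divides by coding length. Of all 46327 models, 23691 passed the filter on low counts and were tested, among them all 9 starch synthases. Between the stages, lists of marker words also moved. Of all genes tested, 42.0% were higher and 38.6% lower in Ls-6mm at an adjusted p under 0.05 by edgeR. Summed CPM of genes described as pollen proteins or profilins ranged from 14000 to 14400 in Ls-6mm and from 988 to 1050 in Ls-4mm (22 of 26 tested genes higher, 2 lower, and 14 of all 50 at 0 counts), that of tapetum and sporopollenin genes from 1890 to 1960 in Ls-6mm and from 743 to 876 in Ls-4mm (19 of 24 higher, 2 lower, 6 of all 41 at 0), and that of light-harvesting and photosystem genes from 5230 to 5450 in Ls-6mm and from 2180 to 2510 in Ls-4mm (36 of 41 higher, 4 lower, 1 of all 46 at 0). Summed CPM of replication genes that mark dividing cells ranged from 191 to 197 in Ls-6mm and from 1200 to 1220 in Ls-4mm, with 9 of 9 lower, and that of 3 meiotic genes from 29.2 to 32.9 in Ls-6mm and from 74.6 to 86.3 in Ls-4mm, with 1 lower and 2 that did not pass. The part of these cell populations in the results below was not tested, and in bulk tissue fewer cells of a type and less RNA per cell cannot be told apart.

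Starch synthase transcripts as a family were less abundant in Ls-6mm, and their make-up differed. Their summed level was 111, 113 and 109 FPKM in Ls-6mm, against 255, 250 and 258 FPKM in Ls-4mm, so each Ls-6mm library lay below each Ls-4mm library and the mean was 43.7% of that in Ls-4mm. Without length scaling the sum was 245 ± 4.52 CPM in Ls-6mm and 509 ± 6.38 CPM in Ls-4mm (SD, n = 3). BGIOSGA024424 alone held 59.6% of the summed FPKM lost by the members that were lower. Without it the remaining members summed to 103 ± 1.46 FPKM in Ls-6mm and 149 ± 0.159 FPKM in Ls-4mm.

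Of the 9 genes, 3 were higher in Ls-6mm and 6 were lower at an adjusted p under 0.05 (edgeR quasi-likelihood test, Benjamini-Hochberg over all 23691 genes). Over all genes tested 80.6% were called, 42.0% higher and 38.6% lower, so the number of members called is near what the whole table gave. At least 2-fold changes were called in 4 members and in 39.1% of all genes, and the same 4 members passed an adjusted p of at most 0.001 with a 2-fold change, as did 36.9% of all genes. The libraries of the stages did not overlap for any of the 9 genes, which held for 81.7% of all genes tested. The median log2 fold change of the members was −0.64, against 0.04 over all genes, and the median of its size was 0.99, against 0.75. Members differed in size and direction over a wide range, with log2 fold changes between −3.58 and 5.24.

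**Figure D1:**
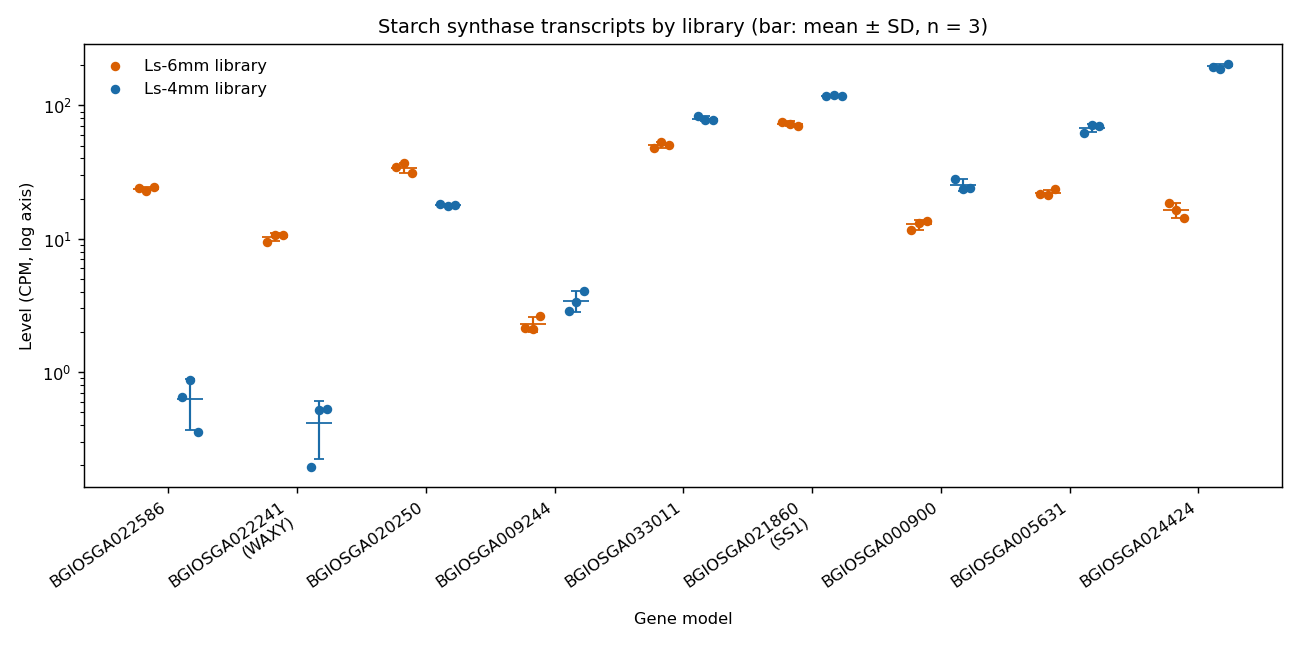
Level of each starch synthase gene in every library, in CPM on a log axis, with Ls-6mm in orange to the left of Ls-4mm in blue, points for the 3 libraries of a stage and bars for the mean ± SD. The stages did not overlap for any gene, and BGIOSGA022586 and WAXY lie under 1 CPM in each Ls-4mm library.

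The WAXY gene (BGIOSGA022241), which encodes a granule-bound starch synthase, was near the floor of detection in Ls-4mm and clearly present in Ls-6mm. It had 158, 217 and 173 counts in Ls-6mm, against 3, 9 and 9 counts in Ls-4mm, or 9.44, 10.7 and 10.6 CPM in Ls-6mm, against 0.195, 0.519 and 0.532 CPM in Ls-4mm. The lowest Ls-6mm library was far above the highest Ls-4mm library. WAXY rose by 4.58 on the log2 scale (standard error 0.23, adjusted p = 7.72e-12 from edgeR), a 23.9-fold difference. The 21 counts over the Ls-4mm libraries set its precision, and the ratio of summed counts was 24.3 with an exact 95% interval of 15.7 to 39.5, which covers counting error only.

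The largest rise among the members was that of BGIOSGA022586, which lies on the same chromosome as WAXY and soluble starch synthase 1. Its level was 24.0, 23.0 and 24.5 CPM in Ls-6mm, against 0.651, 0.866 and 0.355 CPM in Ls-4mm. Those levels rest on 401, 467 and 399 counts in Ls-6mm, against 10, 15 and 6 counts in Ls-4mm. The Ls-6mm libraries were close together, with a coefficient of variation of 3.18%, while that of the Ls-4mm libraries was 41.2% at these few reads. The log2 fold change was 5.24 (SE 0.17, adjusted p = 2.12e-14 by edgeR), and the ratio of summed counts was 38.0 with an exact 95% interval of 26.7 to 56.2. Of all genes tested, 7.23% were called at least 16-fold higher, and BGIOSGA022586 ranked 1255 and WAXY 1454 from the top by log2 fold change. On the log2(FPKM + 1) scale, where the pseudocount weighs on levels under 1, limma gave 3.06 for BGIOSGA022586 and 2.38 for WAXY.

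BGIOSGA020250 was the remaining gene with a higher level in Ls-6mm, and it was already well expressed in Ls-4mm. It had 34.8, 36.8 and 31.0 CPM in Ls-6mm, against 18.2, 17.7 and 18 CPM in Ls-4mm. No library of one stage came near the other stage (1.91-fold, log2 fold change 0.93 ± 0.08 SE, adjusted p = 6.72e-09 by edgeR).

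The steepest fall was that of BGIOSGA024424, the most abundant of the listed starch synthase transcripts in Ls-4mm. It had 18.4, 16.4 and 14.2 CPM in Ls-6mm, against 195, 189 and 204 CPM in Ls-4mm. The stages lay far apart, with the highest Ls-6mm library well below the lowest Ls-4mm library. The gene fell by 3.58 on the log2 scale (standard error 0.07, adjusted p = 8.22e-18 from edgeR), which is 12.0-fold, and it had the rank 148 from the bottom among 23691 genes by log2 fold change. Falls of at least 8-fold were called in 1.15% of all genes.

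BGIOSGA005631 showed the next largest fall. Its level was 21.5, 21.4 and 23.5 CPM in Ls-6mm, against 62.0, 71.1 and 70.1 CPM in Ls-4mm (a log2 difference of −1.62 with a standard error of 0.07 and an adjusted p of 5.89e-13, edgeR). It was 3.06-fold lower, with no overlap between the stages.

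The other 4 falls were smaller than 2-fold. Soluble starch synthase 1 (BGIOSGA021860), which in cereal endosperm extends short amylopectin chains, had 75.7, 73.0 and 69.9 CPM in Ls-6mm, against 117, 120 and 118 CPM in Ls-4mm. It was the most even member between the libraries of Ls-4mm, with a coefficient of variation of 1.32%, against 3.93% in Ls-6mm. Its fall was 1.62-fold (edgeR log2 fold change −0.70 ± 0.04 SE, adjusted p = 1.23e-10). BGIOSGA033011 had 47.8, 53.4 and 50.9 CPM in Ls-6mm, against 83.4, 77.3 and 77.8 CPM in Ls-4mm, and fell by a similar amount (−0.64, standard error 0.05, adjusted p = 6.04e-09). Its FPKM relative to soluble starch synthase 1 was 0.546, 0.632 and 0.628 in Ls-6mm, against 0.614, 0.556 and 0.571 in Ls-4mm, so for this pair the ranges of the ratio overlapped between the stages. BGIOSGA000900 had 11.6, 13.2 and 13.6 CPM in Ls-6mm, against 28.3, 23.8 and 24.1 CPM in Ls-4mm (−0.99, standard error 0.09, adjusted p = 4.49e-08).

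BGIOSGA009244, the short model with only a catalytic domain in its description, was the lowest of the 6 members that fell, in both stages. It had 2.15, 2.12 and 2.64 CPM in Ls-6mm, against 2.86, 3.35 and 4.08 CPM in Ls-4mm, from 36 to 43 counts in Ls-6mm and from 44 to 69 counts in Ls-4mm. The log2 fold change was −0.58 (SE 0.20, adjusted p = 0.0149 by edgeR). This call was lost without Ls-4mm replicate 3 (−0.45, adjusted p = 0.0843), without Ls-6mm replicate 2 (−0.52, adjusted p = 0.0530) and with DESeq2 (−0.56, adjusted p = 0.0528), and over its 14 alternatives adjusted p ranged from 0.00346 to 0.0843.

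**Figure D2:**
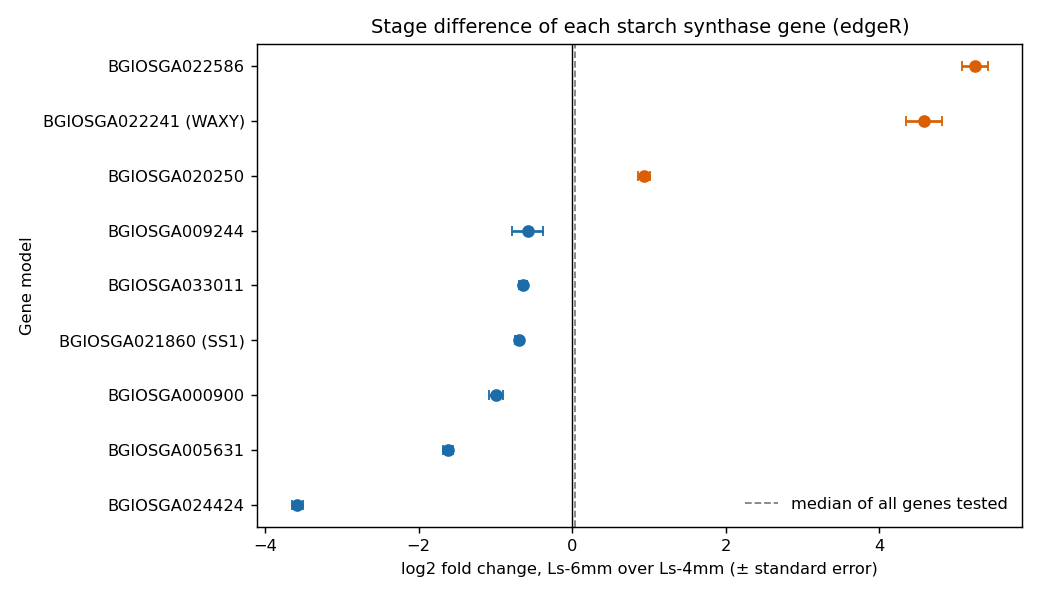
Log2 fold change of Ls-6mm over Ls-4mm with its standard error from edgeR for the 9 starch synthase genes, rises in orange and falls in blue, with the median of all genes tested as a dashed line. BGIOSGA022586 (5.24) and WAXY (4.58) stand far to the right of BGIOSGA020250 (0.93), and BGIOSGA024424 (−3.58) lies farthest to the left.

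The order of the members by FPKM differed between the stages. In Ls-6mm soluble starch synthase 1 (BGIOSGA021860) led at 36.3 ± 1.42 FPKM, followed by BGIOSGA033011 at 21.8 ± 1.21 FPKM, BGIOSGA020250 at 11.9 ± 1.04 FPKM and BGIOSGA005631 at 10.2 ± 0.544 FPKM (SD, n = 3). Below them stood BGIOSGA022586 at 9.47 ± 0.297 and BGIOSGA024424 at 8.56 ± 1.10 FPKM, whose ranges overlapped, then WAXY at 5.37 ± 0.371 and BGIOSGA000900 at 4.92 ± 0.412 FPKM, whose ranges also overlapped, and BGIOSGA009244 at 2.73 ± 0.346 FPKM. The order of all other neighbours in Ls-6mm held in every library. It was barely so for BGIOSGA020250 and BGIOSGA005631, both at 10.8 FPKM after rounding in Ls-6mm replicate 3.

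In Ls-4mm BGIOSGA024424 led at 106 ± 4.22 FPKM, ahead of soluble starch synthase 1 at 60.5 ± 0.491, BGIOSGA033011 at 35.1 ± 1.77 and BGIOSGA005631 at 32.0 ± 2.13 FPKM. BGIOSGA000900 followed at 10 ± 1.08, BGIOSGA020250 at 6.44 ± 0.140 and BGIOSGA009244 at 4.17 ± 0.728 FPKM. BGIOSGA022586 at 0.255 ± 0.104 and WAXY at 0.223 ± 0.102 FPKM were last, and only this pair of neighbours overlapped. Ranked by mean FPKM among all genes tested, BGIOSGA024424 was at percentile 41.5 in Ls-6mm and 93.5 in Ls-4mm, and BGIOSGA022586 at percentile 43.6 in Ls-6mm and 6.94 in Ls-4mm. Soluble starch synthase 1 was at percentile 75.6 in Ls-6mm and 87.0 in Ls-4mm.

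As shares of the summed starch synthase FPKM of a library, the leading member differed between the stages. Soluble starch synthase 1 led in Ls-6mm with a mean of 32.6%, and BGIOSGA024424 led in Ls-4mm with a mean of 41.5%. BGIOSGA024424 made up 8.67, 7.60 and 6.80% of the sum in Ls-6mm, against 41.6, 40.5 and 42.5% in Ls-4mm. Soluble starch synthase 1 made up 32.6 ± 1.07% in Ls-6mm and 23.8 ± 0.594% in Ls-4mm although its own level was lower in Ls-6mm. The 3 genes that rose, WAXY, BGIOSGA022586 and BGIOSGA020250, together made up 24.1 ± 0.328% in Ls-6mm and 2.72 ± 0.0616% in Ls-4mm. BGIOSGA020250 gave the largest part of this, at 10.7 ± 0.767% in Ls-6mm and 2.53 ± 0.0483% in Ls-4mm, followed by BGIOSGA022586 at 8.52 ± 0.400% in Ls-6mm and 0.101 ± 0.0425% in Ls-4mm and WAXY at 4.83 ± 0.343% in Ls-6mm and 0.0878 ± 0.0400% in Ls-4mm. The effective number of members, the inverse of the sum of squared shares, was 5.34, 5.47 and 5.59 in Ls-6mm, against 3.75, 3.81 and 3.70 in Ls-4mm. These shares follow from the levels above and were not tested separately.

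**Figure D3:**
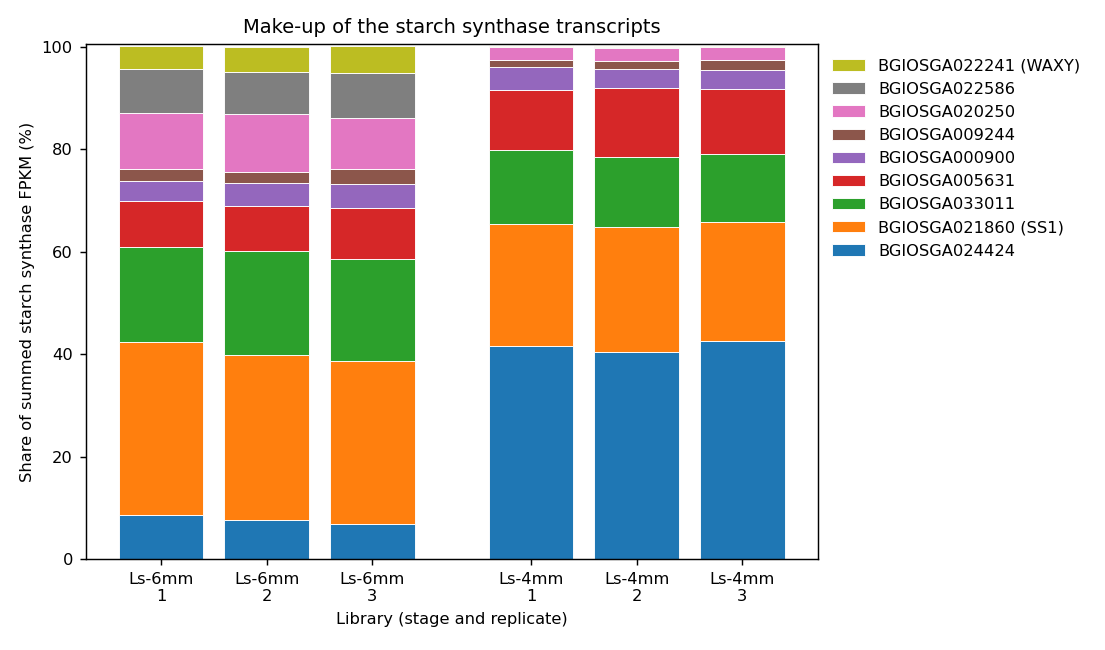
Share of each gene in the summed starch synthase FPKM of a library, in percent, with the Ls-6mm libraries to the left of the Ls-4mm libraries. BGIOSGA024424 takes 6.80 to 8.67% of the Ls-6mm bars and 40.5 to 42.5% of the Ls-4mm bars, in which BGIOSGA022586 and WAXY are too thin to see.

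Genes of the steps around the starch synthases did not all move the same way. For comparison, 80.6% of all genes tested were called, 42.0% higher and 38.6% lower. ADP-glucose pyrophosphorylase makes the ADP-glucose that starch synthases use, and 4 of its 5 genes fell in Ls-6mm while 1 rose (median log2 fold change −0.99). Their summed level was 263, 263 and 260 CPM in Ls-6mm, against 644, 615 and 606 CPM in Ls-4mm. The most abundant member in Ls-4mm, BGIOSGA017490 (chromosome 5 from 30219471 to 30222858), had 45.1, 47.6 and 46.7 CPM in Ls-6mm, against 259, 244 and 247 CPM in Ls-4mm (log2 fold change −2.43, SE 0.04, adjusted p = 7.16e-18 by edgeR), and the large subunit gene BGIOSGA004052, named after its values were seen as the single rise, had 62.7 ± 2.23 CPM in Ls-6mm and 30.0 ± 1.24 CPM in Ls-4mm (1.07, standard error 0.06, adjusted p = 1.65e-11). Like the starch synthases, this list thus held a lower sum with a member in the opposite direction. Little can be read from this likeness, because 42.0% of all genes tested were higher and 38.6% lower.

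Both genes of alpha-1,4 glucan phosphorylase, which adds or removes glucose at chain ends, fell, as did 38.6% of all genes tested. BGIOSGA009780 (chromosome 3 from 35530882 to 35537649) had 151, 150 and 149 CPM in Ls-6mm, against 662, 627 and 657 CPM in Ls-4mm (a log2 difference of −2.11 with a standard error of 0.04 and an adjusted p of 5.06e-18, edgeR). The sum of both genes was 216 ± 3.92 CPM in Ls-6mm and 862 ± 24.3 CPM in Ls-4mm.

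Among enzymes that shape branches, the descriptions gave 1 starch branching enzyme and 1 debranching enzyme, and both were higher. Any others described in different words were not covered. Starch branching enzyme 3 (BGIOSGA006344) had 17.3, 18.1 and 17.7 CPM in Ls-6mm, against 4.16, 4.16 and 5.97 CPM in Ls-4mm (edgeR log2 fold change 1.89 ± 0.13 SE, adjusted p = 4.60e-10), and was named after its values were seen because it is the 1 gene of its list described as acting on starch. The isoamylase BGIOSGA026650 (chromosome 8 from 27633755 to 27640589), a debranching enzyme that trims amylopectin in rice endosperm, had 72.9, 79.2 and 71.1 CPM in Ls-6mm, against 46.3, 47.2 and 40.7 CPM in Ls-4mm (0.74, standard error 0.06, adjusted p = 7.18e-09). The words "branching enzyme" also matched 17 genes of the Core-2/I family, glycosyltransferases that are not known for starch. Of the whole list of 18 genes, 15 were tested and 14 were higher (median 0.85), against 42.0% higher among all genes tested. The most abundant was BGIOSGA016677 at 103 ± 1.44 CPM in Ls-6mm and 73.6 ± 4.5 CPM in Ls-4mm. The largest change was that of BGIOSGA002956, at 4.35 ± 0.0624 CPM in Ls-6mm and 0.241 ± 0.0508 CPM in Ls-4mm. Both are of the Core-2/I family. The 3 genes found for sugar phosphate supply, all with a phosphoglucomutase domain, were at 0 counts in every library. They are short models outside the numbered chromosomes, spanning positions 205 to 624, 842 to 1576 and 8721 to 9311. The level of this step therefore cannot be read from them.

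Of 21 genes of starch breakdown, 12 were tested, 5 were higher, 4 were lower and 3 did not pass (median log2 fold change 0.28), and 2 were at 0 counts throughout. The one with the highest mean CPM over the 6 libraries, through its level in Ls-4mm, a 4-alpha-glucanotransferase that rearranges glucans (BGIOSGA026185, chromosome 7 from 24042478 to 24046564), had 23.7, 20.5 and 20.6 CPM in Ls-6mm, against 124, 126 and 125 CPM in Ls-4mm (−2.53, standard error 0.05, adjusted p = 8.94e-17 from edgeR). The beta-amylase BGIOSGA023752 had 158, 192 and 145 counts in Ls-6mm, against 0, 0 and 1 in Ls-4mm, a ratio of 461 with an exact 95% interval of 82.3 to 18200 for counting error. Its fitted log2 fold change of 8.40 depends on the 1 read in Ls-4mm replicate 3, being 10.32 without that library, and was 2.72 on the log2(FPKM + 1) scale. Over the 6 lists of partner genes 21 of 35 tested genes were higher and 10 lower, and without the Core-2/I family, a split added after the data were seen, 8 of 21 were higher and 10 lower. These are 88.6% and 85.7% called, near the 80.6% of all genes.

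**Figure D4:**
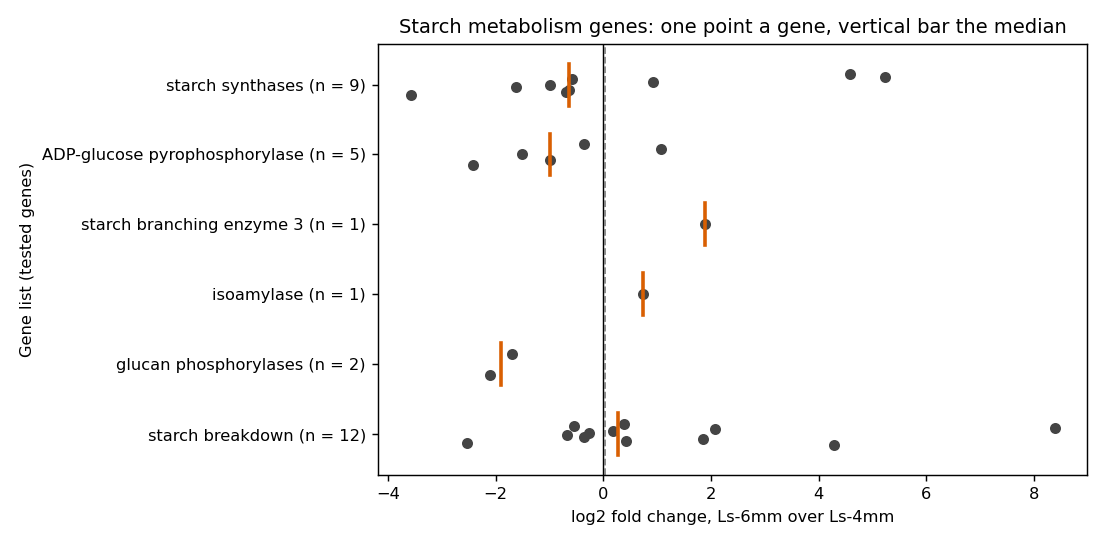
Log2 fold change of Ls-6mm over Ls-4mm for each tested gene of starch metabolism, 1 point a gene, with the median of each list as an orange bar, the median of all genes tested as a dashed line and Core-2/I genes left out. ADP-glucose pyrophosphorylase (median −0.99) and starch synthases (median −0.64) each have members on both sides of 0, while both glucan phosphorylases lie on the left.

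By the distance of log2 CPM over the 6 libraries, the described genes nearest to BGIOSGA022586 were a late embryogenesis abundant protein (BGIOSGA020452, distance 0.892), a protein of unknown function (BGIOSGA016496, 0.903) and a member of the sugar transporter family (BGIOSGA033660, 0.918). The transporter had 22.4, 19.6 and 21.9 CPM in Ls-6mm, against 0.976, 0.635 and 0.591 CPM in Ls-4mm. With 6 libraries in 2 stages this likeness describes little more than a shared level in each stage.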

How the data were processed

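Poly(A) RNA was sequenced by the authors as paired reads on an Illumina HiSeq and aligned with HISAT2 2.0.5. For counting, featureCounts 1.5.0-p3 is listed in the notes of the submitters. The deposited counts are raw whole numbers per gene, and the deposited FPKM values were scaled by the authors to coding length and library size. No source used here gives the strand setting. The methods point to an Ensembl reference of O. longistaminata, although the gene identifiers carry the prefix of O. sativa indica. The authors kept uniquely aligned reads, which can lower genes that resemble each other. Another 36 columns of per-sample values were not used.

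In R 4.3.3, edgeR 4.0.16 kept genes with filterByExpr (minimum count 10, minimum total 15), scaled by TMM and fitted stage as the only term of a quasi-likelihood model, called at Benjamini-Hochberg adjusted p under 0.05. Standard errors come from the fold change and its F statistic. Members, partner lists and markers were words in gene descriptions, chosen with earlier results of these data known. Every member is named. Of each partner list the most abundant gene and the largest called change are named, with the 3 genes nearest to the member that changed most. Log2 CPM used a prior count of 2. Alternatives were DESeq2 1.42.0, RLE, library size only, 2 other filters, limma 3.58.1 on log2(FPKM + 1) and log2(FPKM + 0.1), an adjusted p of at most 0.001 with a 2-fold change, a replicate block and each library left out. No 2 libraries of a stage agreed within sampling noise (chi-square per degree of freedom 2.10 to 3.65).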

Additional observations from a re-analysis of the deposited data

How the results depend on the processing

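For 8 of the 9 starch synthases, direction and the call at an adjusted p under 0.05 held under every alternative that tested them, and for BGIOSGA009244 the log2 fold change was −0.56 (adjusted p = 0.0528) with DESeq2 and −0.70 to −0.45 (adjusted p from 0.00669 to 0.0843) with a library left out. With at least 10 counts in every library BGIOSGA022586 and WAXY were not tested, which left 1 higher starch synthase and 13 higher partner genes. At an adjusted p of at most 0.001 with a 2-fold change, 5591 genes were higher and 3145 lower. At this threshold 2 starch synthases were higher and 2 lower, and 12 partner genes were higher and 5 lower. Without the Core-2/I genes 8 partner genes were higher. With a library left out, 3 starch synthases were higher and 5 to 6 lower, 20 to 23 partner genes higher and 9 to 10 lower, and 9760 to 10148 of all genes higher and 8935 to 9114 lower. All 96 values of the 7 partner genes named by rule kept direction and call. Library size as the only scaling shifted log2 fold changes by −0.14 (median), and no member changed direction. Replicate numbers did not pair the libraries (same-numbered r from −0.0283 to −0.00884), and with the replicate block 9833 genes were higher and 8991 lower, with 3 starch synthases higher and 6 lower and no change of call among the 9 members and the 7 partner genes named by rule. Depth limits WAXY and BGIOSGA022586 in Ls-4mm, at 21 and 31 counts.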
